A study of Mus musculus with 6 samples.

Results

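Kit, Kitl, Ednrb, Ednra, Edn1, Edn2, Edn3 and Ece1 form a pair of ligand and receptor systems on which pigment cells depend, and this account follows their 8 genes through sorted melanocyte stem cells of K14-SCF transgenic (Tg) and wild-type (WT) mice. Their probes were found through the RefSeq accessions in the scanner files: 9 of the 55681 non-control probes on the array, 2 of them for Ednrb and 1 for each other gene, and 8 of the 21368 genes matched. KIT is a receptor tyrosine kinase of pigment cell precursors. Its ligand, stem cell factor or SCF, is encoded by Kitl, is made by neighbouring skin cells such as keratinocytes, and makes KIT dimerise and signal through the MAP kinase and PI3 kinase pathways. Endothelins are short peptides cut from longer precursors, with the last cut made by the membrane protease ECE1. EDN3 acts on pigment cell precursors through the G protein-coupled receptor EDNRB, while EDNRA prefers EDN1 and EDN2 and is best known from vascular smooth muscle.

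The K14-SCF Tg group held 3 samples from male mice that carry SCF under the keratin 14 promoter, which is known to be active in basal keratinocytes. The WT group held 3 samples from male mice without it. Both groups shared 1 sort, GFP-positive skin cells with low side scatter, and no treatment is named in the labels. Age, strain and the driver of GFP are not given in the sources used here. Whether replicates are different animals is not in the labels. The p-values therefore speak only to how much these particular samples vary, and that variation may be technical. Levels are log2 of the spot's processed signal over the 75th percentile of its array, given as mean ± SD over 3 arrays, and a log2 fold change is K14-SCF Tg minus WT. A level describes 1 probe and is not set against that of another gene.

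The arrays lay on 2 slides, WT replicate 1 alone on slide 1, and replicate 3 of both genotypes lay in row 2 of the slide with all others in row 1. Row and replicate number cannot be told apart here. On each array between 78.4% and 87.1% of probes were well above background, and no spot was saturated. Of the 8 melanocyte markers, 7 were well above background on all 6 arrays (Dct, Tyr, Tyrp1, Pmel, Mlana, Slc45a2 and Gpnmb), whereas Oca2 was above it on none. Their summed linear level ran from 213 to 257 on the K14-SCF Tg arrays and from 204 to 275 on the WT arrays, so the ranges overlapped.

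The start regions of Kit, Ednrb and Kitl are shown because the results turn on them: the receptor of SCF, the endothelin receptor of pigment cells, and the ligand gene, whose product the transgene expresses from the keratin 14 promoter in place of the region printed here. Each is the first window listed for its gene, from RefSeq on build GRCm38.p6. It runs from 250 bases before to 50 after a start listed for that gene, on the gene's own strand. For Kit this start is the outer end of the gene (75574987). For Kitl and Ednrb it lies inside the gene, whose outer end is at 100015615 for Kitl and 103844508 for Ednrb. What is said of these windows holds for the listed starts only. Kit lies on the plus strand (chr5:75574737-75575036), Ednrb on the minus strand (chr14:103843652-103843951) and Kitl on the plus strand (chr10:100015571-100015870).
Kit: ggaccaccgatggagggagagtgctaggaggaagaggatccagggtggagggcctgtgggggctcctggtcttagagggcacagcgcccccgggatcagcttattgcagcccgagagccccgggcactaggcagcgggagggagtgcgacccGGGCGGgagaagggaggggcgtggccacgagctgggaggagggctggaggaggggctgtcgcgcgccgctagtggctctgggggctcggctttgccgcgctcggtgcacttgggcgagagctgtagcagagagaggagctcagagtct
Ednrb: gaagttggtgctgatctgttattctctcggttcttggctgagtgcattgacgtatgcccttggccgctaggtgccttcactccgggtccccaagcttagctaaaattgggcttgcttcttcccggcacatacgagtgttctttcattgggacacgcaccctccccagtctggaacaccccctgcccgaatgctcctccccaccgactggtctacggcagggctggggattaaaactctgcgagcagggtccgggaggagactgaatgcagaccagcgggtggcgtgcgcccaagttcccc
Kitl: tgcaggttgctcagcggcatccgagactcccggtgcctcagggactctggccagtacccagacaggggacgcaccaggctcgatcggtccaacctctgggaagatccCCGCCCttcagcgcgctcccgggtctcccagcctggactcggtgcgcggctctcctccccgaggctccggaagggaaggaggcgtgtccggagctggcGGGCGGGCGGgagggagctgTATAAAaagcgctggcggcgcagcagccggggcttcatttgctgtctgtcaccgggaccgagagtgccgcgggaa
Capitals mark matches, on either strand, to the GC box (GGGCGG, found in 35.7% of all 32851 windows of this length) and the TATA box (TATAAA, in 13.6%). Kit held 1 GC box, 98 bases before the start. The Kitl window held 3, of which a pair overlaps in 2 letters, and a TATA box 25 bases before its listed start. The Ednrb window held neither motif. The E-box forms known to bind the melanocyte factor MITF (CATGTG, in 14.2% of windows, and CACGTG, in 7.15%) and the SOX motifs ACAAAG (18.7%) and ACAATG (12.6%) were in none of these 3 windows. Of all 8 genes, which together have 12 such windows, Ece1 was the 1 with a CACGTG or ACAATG match.

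Kit, the receptor of the ligand that the transgene supplies, was well above background on every array. Its level was 3.87, 4.10 and 3.44 on K14-SCF Tg replicates 1 to 3, against 4.35, 4.47 and 3.97 on WT replicates 1 to 3. The genotypes overlapped by 0.13, through K14-SCF Tg replicate 2 and WT replicate 3, and replicate 3 was the lowest array of each genotype. Kit averaged 3.80 ± 0.34 in K14-SCF Tg and 4.26 ± 0.26 in WT (SD, n = 3 each), a log2 fold change of -0.46 (SE 0.28, 95% interval -1.15 to 0.23). It did not pass (limma, adjusted p = 0.954). Both copies of the Kit probe on an array agreed closely, with an SD between them of 0.0066 to 0.077. Within slide row 1 the difference was -0.42 and within row 2 it was -0.54, and without K14-SCF Tg replicate 3 it was -0.28. Mast cells carry KIT too, and of 7 mast cell markers measured, Fcer1a and Ms4a2, which make the IgE receptor, were above background on no array, while the tryptase Tpsb2 and the chymase Cma1 were above it on all 6. The summed mast cell level was 0.591 to 0.693 in K14-SCF Tg and 0.325 to 0.658 in WT. Its part in the Kit values was not tested.

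**Figure D1:**
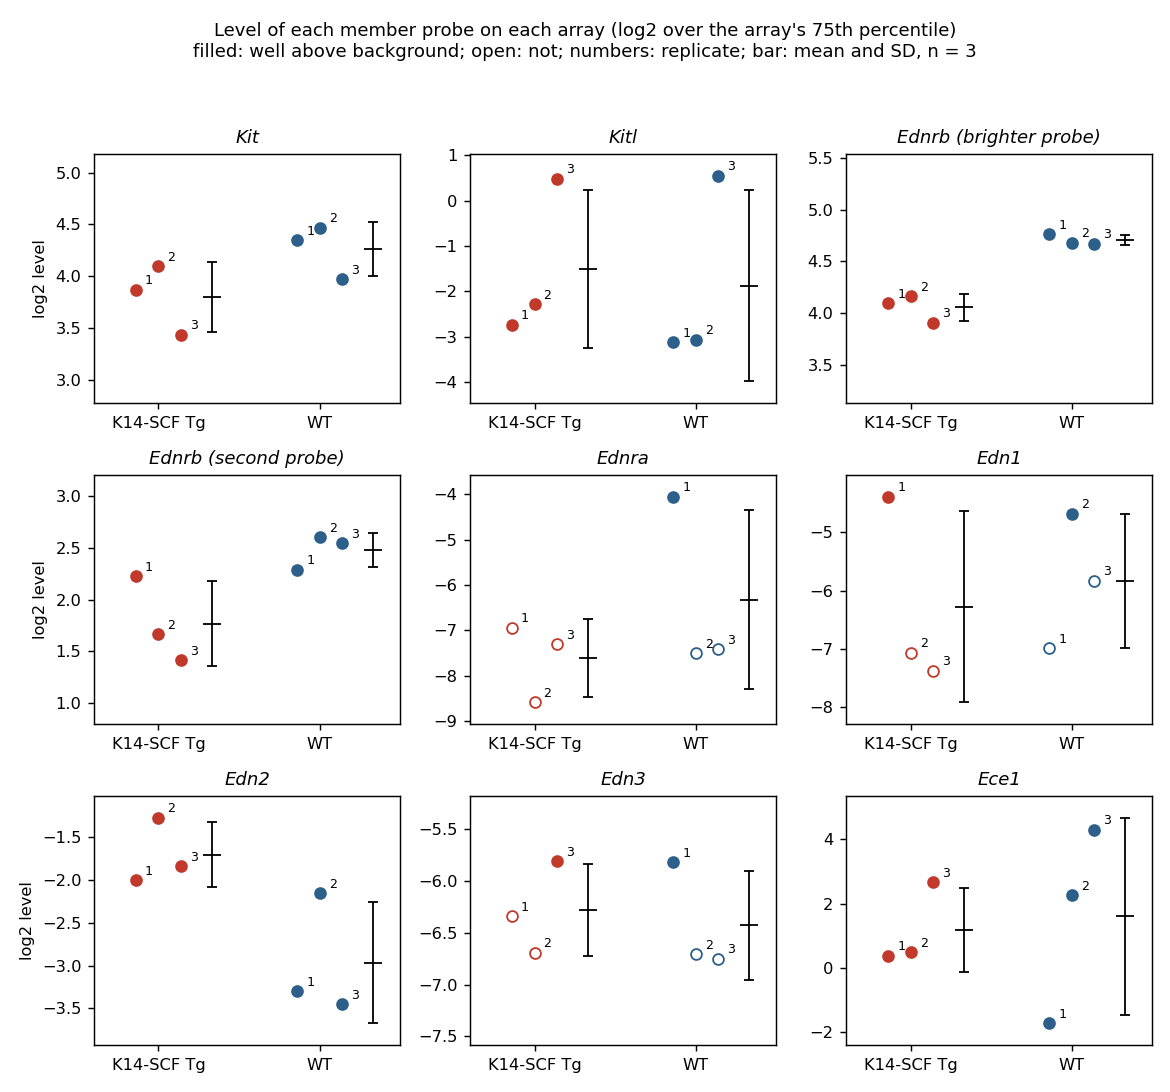
Levels of the 9 probes (log2 over the array's 75th percentile, a separate axis per panel) on 3 K14-SCF Tg arrays (red) and 3 WT arrays (blue). Filled points are well above background, open points are not, numbers are replicates and bars are mean ± SD. Ednrb and Edn2 have no overlap between the genotypes, and Kitl splits by replicate number in both.

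Kitl levels separated the arrays by replicate number, not by genotype. The level was -2.73, -2.28 and 0.48 on K14-SCF Tg replicates 1 to 3, against -3.13, -3.06 and 0.55 on WT replicates 1 to 3. Replicate 3 of both genotypes thus lay far above the other 4 arrays, with a gap of 2.77 between the lower of them and the highest of the rest. Across all 6 arrays the range was 3.68, or 12.8-fold, and the SD within a genotype exceeded that of 97.3% of the 18368 tested genes. Kitl averaged -1.51 ± 1.74 in K14-SCF Tg and -1.88 ± 2.11 in WT (SD, n = 3 each), with a log2 fold change of 0.37 (SE 1.31, 95% interval -2.86 to 3.59) that did not pass (limma, adjusted p = 1.00). The interval runs from 0.138-fold to 12.1-fold, so this comparison could not have shown a difference of several fold in either direction.

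With slide row as a covariate the same log2 fold change of Kitl, 0.37, had an SE of 0.26 and still did not pass (limma, adjusted p = 0.852). Row 2 exceeded row 1 by 3.32 (SE 0.28), the smallest error relative to size among these genes, which did not pass either (limma, adjusted p = 0.267, with 0 of 47709 probes called between the rows). The genotype difference was 0.59 among row 1 arrays and -0.07 between the 2 row 2 arrays. With slide as a block the sign of the log2 fold change turned, to -0.26. WT replicate 1 is alone on its slide, so this is also the value without that array. The genes whose array profile was most like that of Kitl were Rflnb, with a root mean square difference over the 6 arrays of 0.33, the pseudokinase gene Trib3 at 0.41, Magea1 at 0.45 and the asparagine synthetase gene Asns at 0.55. The median over all 16139 genes above background on every array was 1.63. The summed level of all 10 keratinocyte markers, cells that are a known source of SCF, split the arrays as Kitl did. It was 136, 135 and 144 on K14-SCF Tg replicates 1 to 3 and 116, 136 and 147 on WT replicates 1 to 3, so both replicate 3 arrays lay above the other 4. Trp63 made up most of that sum through a probe whose level was far from that of its other probe. The sum without Trp63, left out after the data were seen, did not split them so, and was 12.3, 5.39 and 8.26 on K14-SCF Tg replicates 1 to 3 and 7.89, 17.2 and 6.22 on WT replicates 1 to 3. The split was not particular to keratinocyte markers, because the summed leukocyte and Schwann cell levels showed it too. On replicate 3 of K14-SCF Tg and WT the leukocyte sum was 192 and 207, and at most 189 elsewhere. The Schwann cell sum was 64.6 and 64.7 there, and at most 63.3 elsewhere. Without Itgam the leukocyte sum was highest on WT replicate 2 (7.42). The part of keratinocyte RNA in the Kitl values was not tested. The sum of the 5 dermal papilla markers was lowest on K14-SCF Tg replicate 3 (0.909) and highest on K14-SCF Tg replicate 1 (4.99), with 1.80 to 4.14 in WT. Krt14, whose promoter drives the transgene, had levels of 2.52, 0.51 and 2.12 on K14-SCF Tg replicates 1 to 3 and 0.60, 3.28 and 0.86 on WT replicates 1 to 3. It was well above background on all 6 arrays. Whether the transgene itself was transcribed in the sorted cells was not tested, and the epidermis was not measured. The sequence of the Kitl probe was not available, so whether it would also detect RNA of the transgene is not known.

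**Figure D2:**
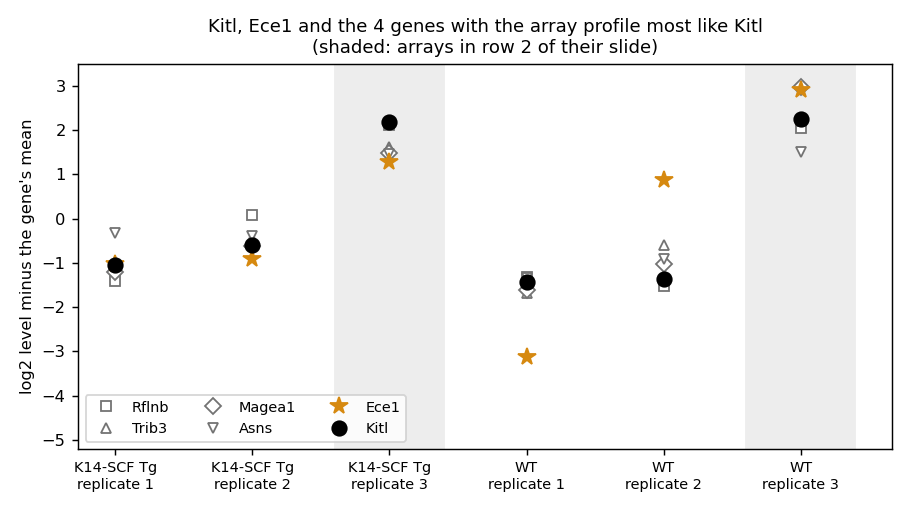
Array profiles of Kitl (black), Ece1 (orange) and the 4 genes most like Kitl (open symbols), as log2 level minus the gene's own mean over 6 arrays, with K14-SCF Tg on the left. Shaded arrays lie in row 2 of their slide; Kitl is above its mean on these 2 alone.

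Ednrb, the endothelin receptor of the pigment lineage, was lower on every K14-SCF Tg array than on any WT array, at both of its probes. The brighter probe (RefSeq NM_007904) gave 4.10, 4.16 and 3.91 on K14-SCF Tg replicates 1 to 3, against 4.76, 4.68 and 4.67 on WT replicates 1 to 3. A gap of 0.51 separated the genotypes, and the arrays within each lay close together, with a within-genotype SD larger than that of only 2.00% of tested genes. Ednrb averaged 4.06 ± 0.13 in K14-SCF Tg and 4.70 ± 0.05 in WT (SD, n = 3 each), a log2 fold change of -0.65 (SE 0.21, 95% interval -1.16 to -0.14), or 0.639 times the WT level. The test over all probes did not call it (limma, adjusted p = 0.822, and 0.480 to 1.00 under the alternative settings).

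The second Ednrb probe (RefSeq NM_001276296) had levels of 2.23, 1.67 and 1.42 on K14-SCF Tg replicates 1 to 3, against 2.29, 2.60 and 2.55 on WT replicates 1 to 3. Here the genotypes were separated by only 0.06, between K14-SCF Tg replicate 1 and WT replicate 1. The log2 fold change was -0.71 (SE 0.29, 95% interval -1.42 to 0.00) and did not pass (limma, adjusted p = 0.914). Both probes measure the same RNA samples, so their like direction is no second replicate. Of all tested genes, 5.41% lay wholly lower in K14-SCF Tg without overlap and 2.56% were lower at an unadjusted p under 0.05, as Ednrb was by its brighter probe. In bulk RNA of this kind, fewer cells of a type and less RNA per cell cannot be told apart. EDNRB is also found in endothelium and glia. The summed level of the 9 endothelial markers was 2.43 to 3.32 in K14-SCF Tg and 2.99 to 5.73 in WT, and that of the 8 Schwann cell markers 62.9 to 64.6 in K14-SCF Tg and 43.5 to 64.7 in WT, so neither separated the genotypes. The summed level of the 8 fibroblast markers did separate them, at 8.95 to 22.4 in K14-SCF Tg and 26.1 to 71.2 in WT. A linear sum is weighted to its brightest markers, here Col1a2, Col1a1 and Col3a1. Taken singly, Col1a2, Col3a1 and Thy1 were lower on every K14-SCF Tg array than on any WT array. Col1a1, Dcn, Lum, Fbln1 and Pdgfra overlapped, and Pdgfra ran from -6.28 to -3.32 in K14-SCF Tg and from -7.56 to -4.83 in WT. The part of fibroblast RNA in the Ednrb difference was not tested.

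**Figure D3:**
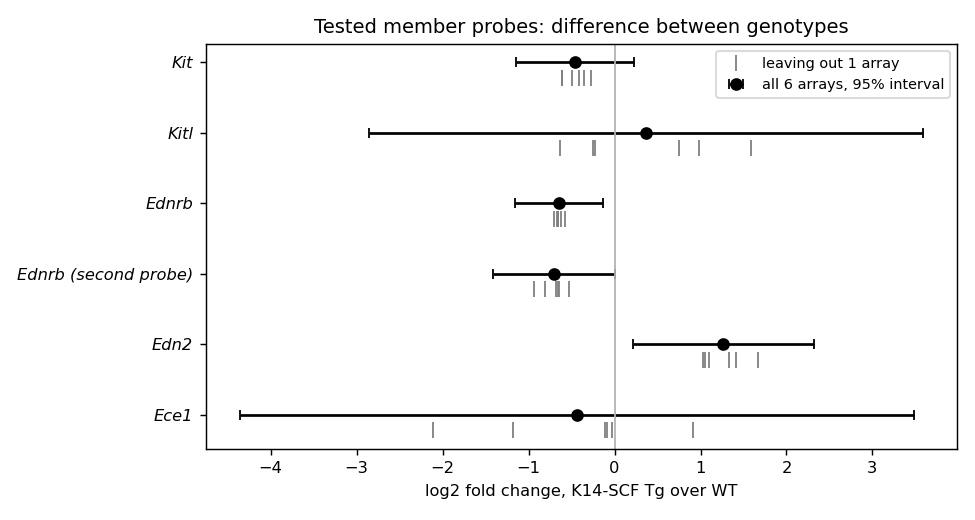
Log2 fold change (K14-SCF Tg over WT) of the 6 tested probes with its 95% interval from limma (black) and the 6 values obtained by leaving out 1 array each (grey ticks). The intervals of Ednrb (brighter probe) and Edn2 lie on 1 side of 0, those of Kitl and Ece1 span several log2 units, and no probe passed after adjustment.

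Ednra, the other endothelin receptor, was near background in these cells. It was above background on WT replicate 1 alone, at -4.05, with -6.94, -8.59 and -7.30 on K14-SCF Tg replicates 1 to 3 and -7.51 and -7.42 on WT replicates 2 and 3. It was therefore not tested. A floor was set on each K14-SCF Tg array at the lowest signal that any probe well above background had there, or at Ednra's own signal where that was larger. The WT mean, taken from the values as measured, was 1.07-fold above the mean of that floor. This is no lower bound on a difference, because WT replicates 2 and 3 were not above background either. It rests on WT replicate 1: without that array the WT level was below the floor. On WT replicate 1 the summed fibroblast level was the highest of all arrays (71.2), while the summed smooth muscle and pericyte level was the lowest (4.68). Of the markers in the latter sum, Rgs5 alone was highest there (-0.82). Pdgfrb, Cspg4, Notch3, Acta2 and Myh11 were each higher on other arrays, and Tagln was lowest there (1.52). The part of fibroblast, smooth muscle or pericyte RNA in the Ednra value was not tested.

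Of the 3 endothelin genes, Edn2 alone was well above background on all arrays, and it was higher on every K14-SCF Tg array than on any WT array. Its level was -2.00, -1.27 and -1.84 on K14-SCF Tg replicates 1 to 3, against -3.30, -2.15 and -3.45 on WT replicates 1 to 3. The closest arrays, K14-SCF Tg replicate 1 and WT replicate 2, were 0.16 apart. Edn2 averaged -1.70 ± 0.38 in K14-SCF Tg and -2.97 ± 0.71 in WT (SD, n = 3 each), a log2 fold change of 1.27 (SE 0.43, 95% interval 0.21 to 2.32), or 2.40-fold. It was not called (limma, adjusted p = 0.854). For comparison, 5.13% of tested genes lay wholly higher in K14-SCF Tg and 2.85% were higher at an unadjusted p under 0.05, as Edn2 was.

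Edn1, the endothelin best known from endothelium and also made by keratinocytes, was printed 10 times on each array, which shows how much of its spread lies between arrays. On K14-SCF Tg replicate 1 all 10 spots were well above background, and the 9 that were not outliers ran from -4.56 to -4.10. On WT replicate 2 all 10 were likewise above background, with 9 spots from -5.00 to -4.44. Every other array was dimmer: 3 and 0 spots were above background on K14-SCF Tg replicates 2 and 3 (means -7.07 and -7.37), and 2 and 4 on WT replicates 1 and 3 (means -6.98 and -5.83). The SD between copies was 0.17 to 0.20 on the bright arrays and 0.58 to 0.84 on the others. The copies on both bright arrays all lay above those on the rest, though narrowly for 1 pair of arrays. On WT replicate 3 (SD 0.60) the highest copy was -5.07, close to the lowest used copy of WT replicate 2 at -5.00. The bright arrays belong to different genotypes. Edn1 averaged -6.27 ± 1.64 in K14-SCF Tg and -5.83 ± 1.15 in WT (SD, n = 3 each). With at least 5 of 10 spots required, Edn1 was above background on 2 arrays and was not tested. Counting an array where any spot was above background, it was tested and had a log2 fold change of -0.44 (limma, adjusted p = 0.999). The bright arrays also had the highest summed keratinocyte levels without Trp63, 12.3 on K14-SCF Tg replicate 1 and 17.2 on WT replicate 2, against 5.39 to 8.26 elsewhere. With Trp63 kept this match was absent: the sums were 136 on each of these arrays, below the 144 on K14-SCF Tg replicate 3 and the 147 on WT replicate 3. The summed endothelial level was 3.14 on K14-SCF Tg replicate 1 and 3.69 on WT replicate 2, and ran from 2.43 to 5.73 on the others. The part of keratinocyte or endothelial RNA in the Edn1 values was not tested.

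**Figure D4:**
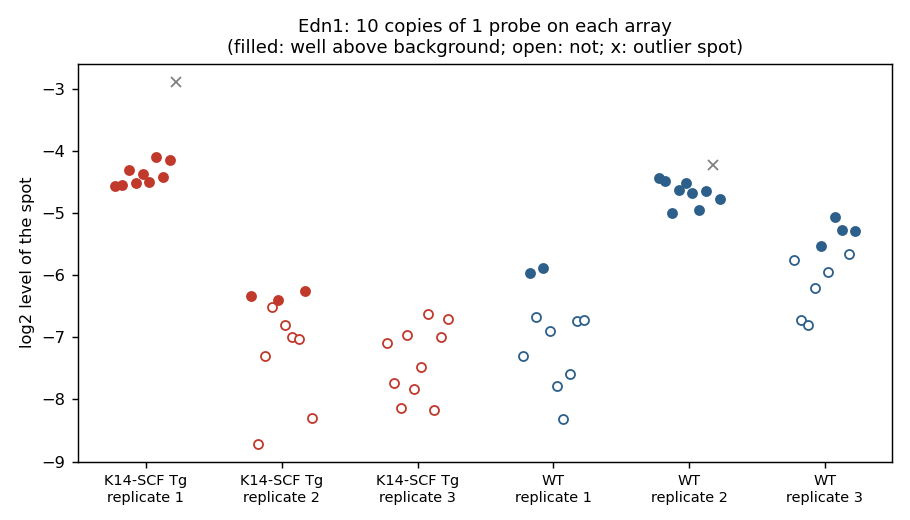
Log2 level of each of the 10 Edn1 spots on 3 K14-SCF Tg arrays (red) and 3 WT arrays (blue). Filled spots are well above background, open ones are not and crosses are outlier spots; K14-SCF Tg replicate 1 and WT replicate 2 stand above the others with all their spots.

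Edn3, the ligand that acts on pigment cell precursors through EDNRB, was hardly detected. It was above background on K14-SCF Tg replicate 3 (-5.81) and WT replicate 1 (-5.82), and stood at -6.34 and -6.70 on K14-SCF Tg replicates 1 and 2 and at -6.71 and -6.75 on WT replicates 2 and 3. It was not tested, and the probe was near its detection limit in both genotypes.

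Ece1, the endothelin-converting enzyme, varied between arrays more than almost any gene, with a larger range than 99.0% of tested genes. Its level was 0.36, 0.47 and 2.67 on K14-SCF Tg replicates 1 to 3, against -1.74, 2.26 and 4.30 on WT replicates 1 to 3. The WT arrays spanned 6.04, or 65.8-fold, and enclosed all 3 K14-SCF Tg arrays. Ece1 averaged 1.17 ± 1.30 in K14-SCF Tg and 1.61 ± 3.07 in WT (SD, n = 3 each), with a log2 fold change of -0.44 (SE 1.60, 95% interval -4.36 to 3.48) that did not pass (limma, adjusted p = 1.00). Leaving out any 1 array changed this value. It was -0.03, -0.09 and -1.19 without K14-SCF Tg replicates 1, 2 and 3, and -2.11, -0.11 and 0.91 without WT replicates 1, 2 and 3. The value within slide 2, -2.11, is that without WT replicate 1. As for Kitl, the highest array of each genotype was replicate 3, and row 2 exceeded row 1 by 3.14 (SE 1.22; limma, adjusted p = 0.504). The summed endothelial level was highest on WT replicate 3 (5.73), where Ece1 was highest, but lowest on K14-SCF Tg replicate 3 (2.43).

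Of the 5 genes tested, none was called, where 1 of all 18368 tested genes was (0.00544%). At an unadjusted p under 0.05 limma counted 2 of the 5, Ednrb lower and Edn2 higher, and 995 of all genes. The median log2 fold change of the 5 was -0.44, and that of all tested genes -0.01. The other 3 genes had too few arrays above background to be tested.

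Among the adaptors, kinases and brakes that act below KIT none was called. All 29 listed genes were tested, 21 with a negative and 8 with a positive difference (K14-SCF Tg minus WT), with a median log2 fold change of -0.17, where 51.4% of all tested genes were negative. In no gene of the 29 were the genotypes without overlap, where 5.41% of all genes lay wholly lower and 5.13% wholly higher in K14-SCF Tg. The smallest unadjusted p belonged to Gab1, an adaptor that recruits PI3 kinase, which averaged 3.35 ± 0.36 in K14-SCF Tg and 4.10 ± 0.43 in WT (SD, n = 3 each; log2 fold change -0.75, SE 0.33). Spred2, a brake on the RAS pathway, followed at -0.76 (SE 0.42) and Pik3r2, a regulatory subunit of PI3 kinase, at -0.58 (SE 0.34). Sos1, which loads RAS with GTP, had the most negative value, -1.08 (SE 0.83), and the SRC family kinase Lyn the most positive, 0.92 (SE 0.91). Adjusted p-values of the list were 0.923 to 1.00 (limma). The proteases known to release soluble SCF from the membrane were tested at 3 of 4 genes, Mmp9 being too dim. Cma1, at 0.40 (SE 0.24), Adam33, at 0.26 (SE 0.29), and Adam17, at 0.14 (SE 0.35), did not pass, and other probes of Adam17 (-0.10) and Adam33 (-0.07 and 0.47) did not all share the sign.

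Genes that process endothelins or act below their receptors were tested at 15 of 16, with Kel too dim. Log2 fold changes were negative for 10 and positive for 5 (median -0.15), and none was called (limma, adjusted p of 0.873 to 1.00). Plcb1, a phospholipase C that Gq proteins switch on, ranged from -2.91 to -1.26 on the K14-SCF Tg arrays and from -3.54 to -3.22 on the WT arrays, without overlap. Its log2 fold change was 1.25 (SE 0.45), and 1.30 (SE 1.83) at its second probe. The kinase gene Grk2, whose product turns off activated receptors, stood at -0.55 (SE 0.32), the G protein gene Gna11 at -0.55 (SE 0.32) and the converting enzyme gene Ece2 at -0.58 (SE 0.36). These 3 lay wholly lower in K14-SCF Tg, where 5.41% of all genes did. Of the transcription factors known to act on Kit or Ednrb, all 4 were tested and had small negative values that did not pass: Pax3 -0.21 (SE 0.23), Tfap2a -0.15 (SE 0.24), Mitf -0.17 (SE 0.32) and Sox10 -0.08 (SE 0.32).

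**Figure D5:**
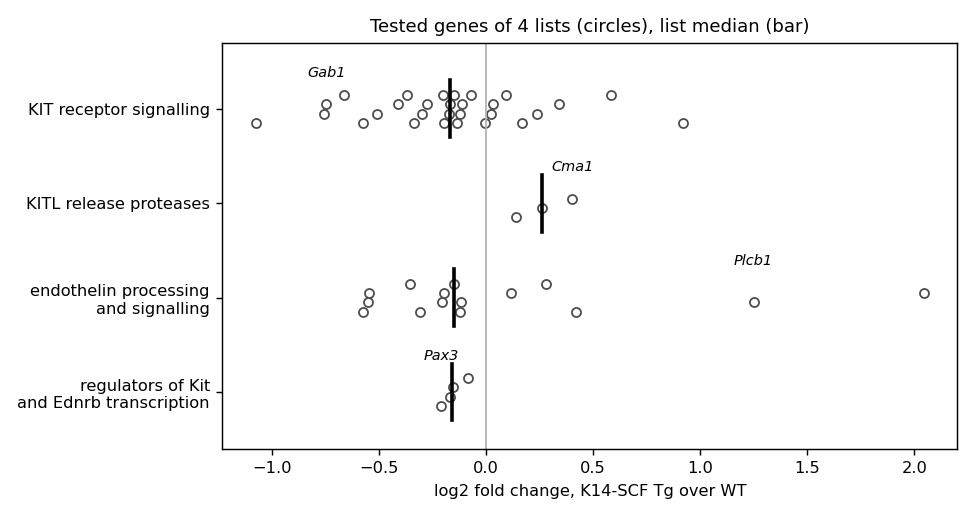
Log2 fold change (K14-SCF Tg over WT) of the tested genes of 4 lists (circles; 29, 3, 15 and 4 genes) with the list median (bar) and the gene of smallest p named. List medians are -0.17, 0.26, -0.15 and -0.16, and no gene was called.

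The genes whose array profiles were most like that of Kit were Fastk (root mean square difference 0.069), the ubiquitin ligase gene Nedd4 (0.080), Gnaq (0.087), the Gq protein gene of the endothelin list, and Vezf1 (0.093), where the median of all candidates was 0.54. Gnaq stood at 1.56, 1.67 and 1.09 on K14-SCF Tg replicates 1 to 3 and at 1.79, 1.97 and 1.48 on WT replicates 1 to 3, lowest on replicate 3 in each genotype as Kit was. For Ednrb they included the actin-bundling gene Pls3 (0.049), Ssr1 (0.074) and 1700012B07Rik (0.087), against a median of 0.53. Genes that vary little are close to one another by this measure.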

How the data were processed

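RNA of 6 sorted samples (3 K14-SCF Tg, 3 WT) was hybridised to 1-colour Agilent arrays, 1 per sample. Per the file headers, the intensity values are the processed signal (corrected by the scanner software for background and spatial trend) and the median signals of spot and local background, read with Agilent Feature Extraction 10.7.1.1, which the submitters' processing notes also name. Flags of 0 or 1 per spot (above background, outlier) were taken as deposited. The deposited value table is a linear ratio: each column equals the processed signal over 1 constant per array (1405 to 1678, 100% of values within 0.001 of it), and it served as an alternative.

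Spots of a probe were averaged on the log2 scale without outlier spots, and each array was centred on its 75th percentile. A probe counted as above background where at least 0.5 of its spots did. Probes above it on at least 3 arrays were tested, 47709 in all, after 3 were left out as outliers. Names came from RefSeq accessions (28331 of 29786 probes matched, assembly GRCm38.p6), and a gene was represented by its brightest tested probe, giving 18368 genes. limma 3.58.1 in R 4.3.3 (2-sided, no covariates, Benjamini-Hochberg over all tested probes, threshold 0.05) compared the genotypes, and the steps were tested on simulated data. Genes named are all 8 members with every probe, up to 3 per pathway list by p, 4 each by likeness to Kitl, Kit and Ednrb (1 of those for Ednrb is not reported here), and markers. Sos1, Lyn, Ece2, Krt14, Rgs5 and the mast cell, fibroblast and melanocyte markers beyond the brightest were chosen after their values were seen. The members and lists were chosen with earlier results of these data known.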

Additional observations from a re-analysis of the deposited data

How the results depend on the processing

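None of the 5 tested genes was called under the 17 alternatives run for them, and no gene of the pathway lists under the 16 run for those, which leave out the filter on any spot. Kit, Ednrb at both probes and Edn2 kept their direction under all of them. Kit lay between -0.61 and -0.28 and Edn2 between 0.98 and 1.67. Ednrb lay between -0.73 and -0.57 by its brighter probe and between -0.94 and -0.53 by its second. Kitl turned to -0.26 with slide as a block. Leaving out WT replicate 1 gives the same estimate, because that array is alone on its slide, so these are not separate checks. Leaving out 1 array each gave -0.63 to 1.58 for Kitl, negative without WT replicate 1, WT replicate 2 or K14-SCF Tg replicate 3. Ece1 gave -2.11 to 0.91 on leaving out 1 array each, positive without WT replicate 3. The count of probes called, 1 over the whole array, was 0 with normexp, with a filter on all 6 arrays, with slide or slide row in the fit, with the replicate block, with a trended and robust variance and without any 1 array; the cause was not tested. Median centring moved the median of all probes to -0.07 from 0.01, by less than 0.1. The labels tie nothing to the replicate numbers, though both arrays of replicate 3 lay in slide row 2. Deviations of same-numbered arrays correlated with r of 0.02, 0.05 and 0.13, not all over 0.1, so the numbers were not taken as pairs. Of the 6 arrays, 3 correlated best with their own number: both of replicate 3, and K14-SCF Tg replicate 2. With the replicate block Ednrb was -0.65 (limma, adjusted p = 0.762). Counting any spot above background was an alternative chosen after the data were seen. Ednra, Edn1 and Edn3 could not be fitted under most alternatives because the filter removed them; without a filter they gave -1.29, -0.44 and 0.14. The number of arrays and the dim signal of these 3 genes limit what could be detected.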

Other observations

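Few genes had a gap between replicate 3 and the other arrays as wide as that of Kitl, 2.77. That cutoff was taken from Kitl, so the count does not say how common a smaller separation was. Rflnb, Trib3, Magea1 and Asns, named above, had both row 2 arrays above all row 1 arrays by less. Besides Kitl, 2 of the 18368 tested genes had both row 2 arrays above all row 1 arrays by at least as much, and both were named after their values were seen. Plau, which encodes the urokinase plasminogen activator, stood at -8.38, -8.74 and -0.92 on K14-SCF Tg replicates 1 to 3 and at -8.24, -3.85 and -0.80 on WT replicates 1 to 3. Slc17a7, a vesicular glutamate transporter gene, stood at -4.75, -6.69 and -1.01 on K14-SCF Tg replicates 1 to 3 and at -6.77, -8.55 and -1.65 on WT replicates 1 to 3. Several of these values lay below the lowest signal that any probe well above background had on that array. For Plau they were K14-SCF Tg replicates 1 and 2 and WT replicate 1, and for Slc17a7 K14-SCF Tg replicate 2 and WT replicates 1 and 2.

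For 2 marker genes, probes of the same gene gave widely different levels. The brightest Trp63 probe averaged 6.97 over all arrays and its other probe -6.58, and the brightest of the 3 Itgam probes averaged 7.48 and the next -2.31. The summed leukocyte level was 177 to 192 in K14-SCF Tg and 152 to 207 in WT with Itgam, and 3.45 to 4.80 in K14-SCF Tg and 3.81 to 7.42 in WT without it.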
